A study of Homo sapiens with 2 samples.

Results

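Within sections of 2 breast cancer tumors, the spots richest in hypoxia transcripts lay partly at the rim of the tissue and partly far inside it, and these 2 positions were compared. Visium arrays read out RNA by position: a spot with 1 barcode covers a small patch of the section, which can hold several cells. Of 5382 spots over tissue, 5377 had at least 500 unique molecular identifiers (UMIs, counted transcript molecules) and were kept. For each, H was the number of UMIs of NDRG1, BNIP3, CA9, SLC2A1, P4HA1, ADM, EGLN3 and ANKRD37 per 10000 UMIs, averaged over the spot and its adjacent spots. The spots in the highest 25% of H in each tumor were called hypoxic, which gave 634 spots in Tumor-897 and 710 in Tumor-899. Depth in the tissue was counted in array steps to the nearest off-tissue position of a connected off-tissue area of at least 5 positions. The third of hypoxic spots with the fewest steps, near the border, held 249 spots in Tumor-897 and 242 in Tumor-899. The third with the most steps, deep in the tissue, held 226 and 257 spots. These 974 of the 1344 hypoxic spots are described here, and the 370 hypoxic spots between them were used only for profiles by step.

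Both tumors were grown from MDA-MB-231, an established human line of triple-negative breast cancer, here 1 line that carries a reporter which marks cells for good once they have met low oxygen. The tumors were untreated, were taken at day 18 after implantation, and were cut at 10 µm, 1 section each (n = 2). Neither the host species nor whether each section came from its own animal is given in the labels, so p-values measure the spread between these sections, which may be technical. The fluorescence of the reporter was not used here, so the spots are hypoxic by transcripts and not by fate. The study asks about hypoxia programs kept by cells after they leave hypoxic tissue. The comparison made here asks instead which genes differ between hypoxic tissue at the rim and hypoxic tissue inside.

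Cells short of oxygen stabilise the transcription factor HIF, which raises genes for glucose uptake, glycolysis, acid export, mitophagy and vessel growth. In solid tumors, low oxygen is usually found where tissue lies far from perfused vessels, often beside necrosis. Hypoxia transcripts alone do not say what else the tissue holds: matrix, immune cells, blood and nutrient supply can differ between places with a similar HIF response.

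The near spots lay at 1 to 5 steps in Tumor-897 and 1 to 8 steps in Tumor-899, and the deep spots at 12 to 25 and 14 to 27 steps. In Tumor-897 the near spots formed 11 connected patches and the deep spots 8. In Tumor-899 there were 5 near patches and 29 deep ones, of which the largest held 47 spots. The rule on H is a threshold: the lowest hypoxic spot had 25.1012 and the highest spot left out 25.0889 UMIs per 10000 in Tumor-897, and 23.9031 against 23.8935 in Tumor-899. Deep hypoxic spots were shallower in sequencing. Their median was 11213 UMIs against 20722 near the border in Tumor-897, and 2408 against 10923.5 in Tumor-899. An area of low UMI counts, cut by a threshold on smoothed UMIs, held 50.4% of deep and 18.5% of near hypoxic spots in Tumor-897, and 57.2% and 33.1% in Tumor-899. Calls lost when the zones were matched on UMIs per spot, or without the low-UMI area, are given beside each gene. The summed depth behind each value was 5280795 UMIs near and 2836782 deep in Tumor-897, and 2638029 near and 1933248 deep in Tumor-899.

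**Figure D1:**
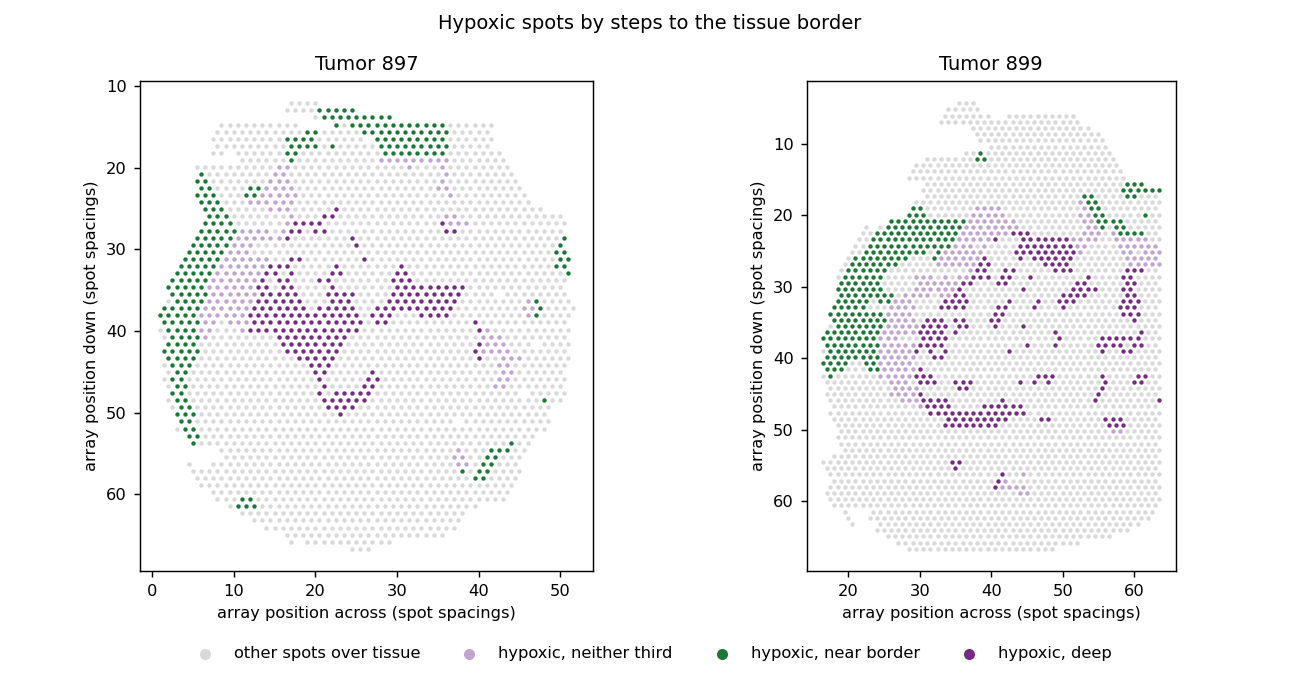
Positions of kept spots over both sections, with both axes in spot spacings; green points are near-border and dark purple points deep hypoxic spots, light purple points hypoxic spots of neither group, and grey points all other spots. The near spots follow the tissue rim, the 226 deep spots of Tumor-897 sit in a few large patches, and the 257 deep spots of Tumor-899 are scattered over 29 patches.

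The labelled cells were checked against markers, whose summed levels are UMIs per 1000000 UMIs of the zone, with no further scaling (UPM). Those MDA-MB-231 is known to express (VIM, CD44, AXL, CAV1, S100A4, FOSL1) summed in the 4 zones to between 7603 and 9945 UPM. Those taken to be low or absent in it (ESR1, PGR, ERBB2, GATA3, FOXA1, CDH1) summed to between 25.4 and 31.8, and PGR was at 0 in all 4. Most of this sum was ERBB2, which held 141 of 168 UMIs near and 59 of 72 deep in Tumor-897. In Tumor-899 it held 67 of 80 near and 40 of 53 deep. Endothelial markers were near the floor in both zones, at 20.8 near and 19.04 deep in Tumor-897 and 19.3 and 17.6 in Tumor-899, and the defining genes CDH5, VWF, EMCN and CLDN5 were at 0 in the deep spots of both tumors. Adipocyte markers stayed at or below 3.17 UPM and skeletal muscle markers between 11.6 and 25.9. Skin epithelium markers were between 548 and 702, with KRT1 at 0 in all 4. KRT5 was at 0 in the deep spots of Tumor-897 and in both zones of Tumor-899, and KRT14 in the deep spots of Tumor-897. In sums over spots, fewer cells of a type and less RNA per cell cannot be told apart, and tumor reads cannot be told from host reads that matched human genes.

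The 8 genes of H chose the spots, so they are described without a test. Levels are counts per 1000000 (CPM) of each zone's sum, scaled by TMM. BNIP3, a mitophagy receptor, was at 669 CPM near and 814 deep in Tumor-897, and at 722 and 705 in Tumor-899. CA9, a carbonic anhydrase, was at 213 near and 154 deep in Tumor-897, and at 236 and 119 in Tumor-899. SLC2A1, the glucose transporter GLUT1, was at 740 near and 545 deep in Tumor-897, and at 674 and 512 in Tumor-899. CA9 and SLC2A1 were thus lower deep in both tumors, as was NDRG1, a stress-induced gene, with 1698 against 1539 CPM in Tumor-897 and 1781 against 1175 in Tumor-899. The vasodilator peptide gene ADM went opposite ways: it was at 268 near and 342 deep in Tumor-897, and at 277 and 127 in Tumor-899. EGLN3, an oxygen sensor that marks HIF for decay, was at 68.8 near and 96.4 deep in Tumor-897, and at 64.6 and 45.9 in Tumor-899. P4HA1, which hydroxylates collagen, and ANKRD37 likewise differed by 0.12 and 0.17 on the log2 scale in Tumor-897 and by -0.47 and -0.62 in Tumor-899. Together the 8 genes made up 3800 UPM near and 3605 deep in Tumor-897, and 4015 and 2928 in Tumor-899. In these pooled sums the zones were closer in Tumor-897 than in Tumor-899. In the rule's own measure, H per spot, the median was lower deep in both tumors. It was 35.7 near and 31.0 deep in Tumor-897, and 37.5 and 27.1 in Tumor-899.

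UMIs were summed per tumor and zone, and the 4 sums were tested with edgeR's quasi-likelihood test with the tumor as a block, over 11330 genes. At a Benjamini-Hochberg adjusted p under 0.05, 85 genes were called (0.750% of those tested). Of these, 18 were higher deep (0.159%) and 67 lower deep (0.591%). All 85 had 1 sign in both tumors, as had 57.5% of all tested genes, and the median log2 fold change over all tested genes was 0.01. The test has 1 residual degree of freedom, so its errors lean on a spread shared across genes. At an unadjusted p under 0.05, 1254 of the 11330 genes passed in either direction, to be set beside the list counts below.

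**Figure D2:**
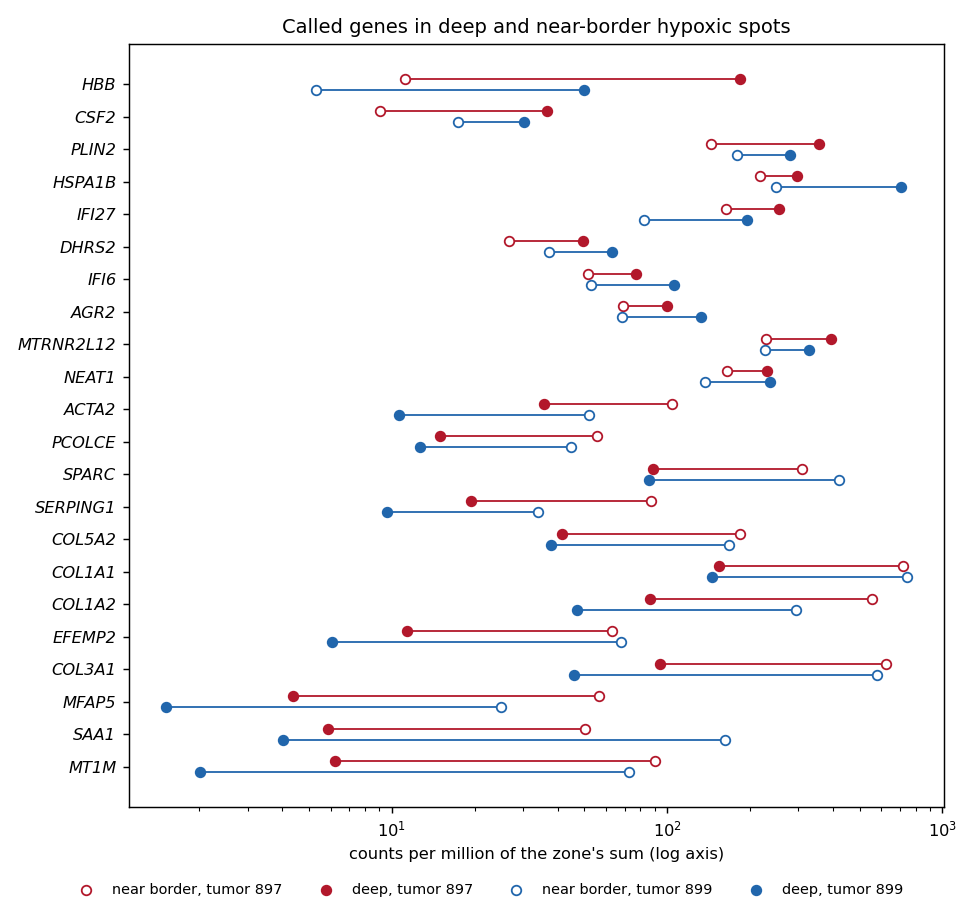
Levels of the called genes with the largest changes, in CPM on a log axis; open circles are near-border and filled circles deep hypoxic sums, red is Tumor-897 and blue Tumor-899, and each line joins the zones of 1 tumor. The 10 genes at the top, from HBB to NEAT1, are higher deep and the 12 below, from ACTA2 to MT1M, are lower deep in both tumors.

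Matrix genes were the main group that was lower deep. Of 20 genes for collagens and their assembly, 11 fell from near to deep hypoxic spots and none rose, beside 0.591% of all tested genes called lower. Their median was -0.98 on the log2 scale, and 17 of the 20 were below 0 in both tumors, beside 28.8% of the genes tested. COL3A1, a fibrillar collagen of loose connective tissue (chr2:188974373-189012746, GRCh38.p14), was at 623 CPM near and 94.5 deep in Tumor-897, and at 579 and 45.9 in Tumor-899. Both near values lay far above both deep values, an 8.65-fold difference (log2 -3.11 ± 0.18, SE; adjusted p = 5.2e-06). COL1A1, the main chain of type I collagen, was at 717 near and 154 deep in Tumor-897, and at 746 and 146 in Tumor-899, a 4.86-fold difference (log2 -2.28 ± 0.10). Its partner chain COL1A2 had a log2 fold change of -2.66 and the fibril-shaping COL5A2 of -2.15. SPARC, a collagen-binding matrix glycoprotein, was at 310 near and 89.1 deep in Tumor-897, and at 420 and 86.2 in Tumor-899 (log2 -2.03 ± 0.13).

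MFAP5, EFEMP2, PCOLCE and ACTA2 fell as well. MFAP5, a component of elastic microfibrils, was at 56.6 CPM near and 4.38 deep in Tumor-897, and at 24.9 and 1.51 in Tumor-899. The last value rests on 3 UMIs, and the plain ratio in that tumor was 16.1 with a 95% counting interval (exact) from 5.28 to 80.2. EFEMP2, which helps assemble elastic fibres, had a log2 fold change of -2.84 and PCOLCE, which speeds the maturation of fibrillar collagen, of -1.87. ACTA2, the smooth muscle actin of contractile cells, was at 104 near and 35.8 deep in Tumor-897, and at 52.1 and 10.6 in Tumor-899 (log2 -1.74 ± 0.18). None of the 12 named genes with the lowest log2 fold changes lost its call in the deep against near comparison under any alternative that gave a test.

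Fibroblast markers moved with these genes. The 13 markers summed to 836 UPM near and 162 deep in Tumor-897, and to 750 and 116 in Tumor-899. Of the 8 that passed the filter on low counts, 5 fell and none rose, beside 0.591% of all tested genes called lower. Among the 5 were COL3A1, MFAP5 and PCOLCE, which the matrix account above already gave. LUM and DPT were at 0 in the deep spots of Tumor-897, and DCN and DPT in those of Tumor-899. In the near spots of Tumor-899, DCN and LUM were at 0 as well, so DCN showed no drop there and LUM was found only deep. In the other, not hypoxic, spots at the same steps the sum also differed, with 688 near and 240 deep in Tumor-897 and 945 and 166 in Tumor-899. The part of these cells in the matrix result was not tested.

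The profile by step over all 1344 hypoxic spots placed the change in the outermost spots. COL3A1 was at 922 UPM at 1 to 2 steps and 225 at 3 to 5 steps in Tumor-897, and between 80.0 and 114 in every wider class. In Tumor-899 it was at 1414, then 272, and then between 35.0 and 58.9. SPARC dropped more slowly in Tumor-899, from 793 to 373 and then to between 74.4 and 92.6.

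**Figure D3:**
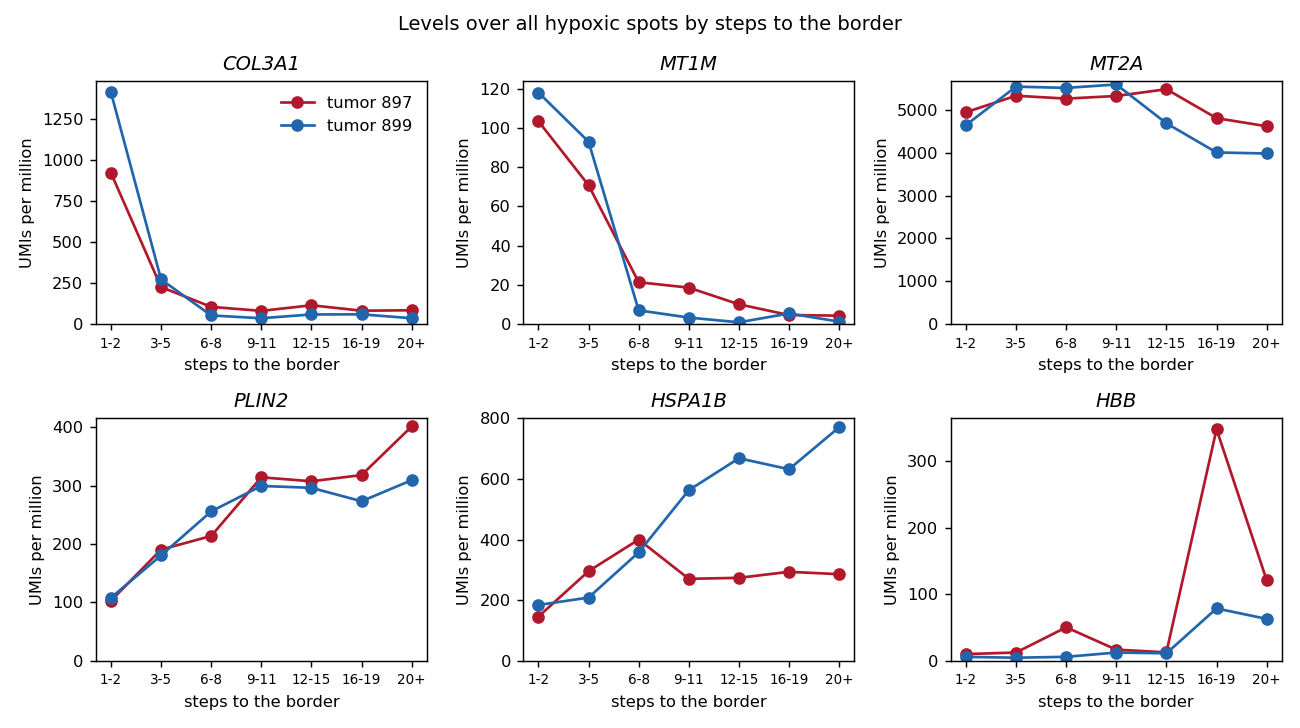
UPM (vertical axes, from 0) of 6 genes over all hypoxic spots, grouped by steps to the tissue border (horizontal axes); red is Tumor-897 and blue Tumor-899, and each point is 1 sum over spots with no replicate error. COL3A1 and MT1M are highest within 5 steps, MT2A stays between 3985 and 5598, PLIN2 is lowest at the border, and HBB is highest from 16 steps on.

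Of 18 mesenchymal and invasion genes that passed the filter, 3 fell, among them TGFBI and AXL, and none rose, beside 0.591% of all tested genes called lower. The median was -0.36 and 13 of 18 were below 0 in both tumors, beside 28.8% of the genes tested. AXL, a receptor kinase used above as a marker of the line, was at 715 CPM near and 475 deep in Tumor-897, and at 732 and 512 in Tumor-899 (log2 -0.55 ± 0.09). MMP14, a membrane-bound matrix protease, had a log2 fold change of -0.74 with an adjusted p of 0.051 and was not called.

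Called genes outside the naming rule, chosen after their values were seen, included LAMB3 (log2 -0.63 ± 0.10), a laminin chain of epithelial basement membrane, and ITGB4 (log2 -0.66 ± 0.12), a chain of a laminin-binding integrin. LAMB3 was at 469 near and 292 deep in Tumor-897, and at 439 and 294 in Tumor-899. TNC, a matrix glycoprotein of remodelled stroma, was at 122 near and 52.9 deep in Tumor-897, and at 98.9 and 48.9 in Tumor-899 (log2 -1.12 ± 0.12). FN1, fibronectin, had a log2 fold change of -0.63 and the adhesion protein gene TGFBI of -0.66. INHBA, a chain of the TGF-beta family ligand activin A, was at 113 near and 70.1 deep in Tumor-897, and at 88.7 and 47.4 in Tumor-899. With DESeq2 in place of edgeR, or with zones matched on UMIs per spot, AXL, TGFBI, ITGB4 and INHBA were not called, at adjusted p between 0.072 and 1.0. Without the tumor block these 4 were lost too, at adjusted p between 0.051 and 0.10, and INHBA also in spots thinned to 2000 UMIs (adjusted p = 0.54). LAMB3 was lost with DESeq2 only, and FN1 with matched UMIs and with a minimum of 2000 UMIs per spot.

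The largest drop of all named genes was in a metallothionein, a small cysteine-rich protein that binds zinc and copper. MT1M (chr16:56632659-56633981, GRCh38.p14) was at 90.6 CPM near and 6.20 deep in Tumor-897, and at 72.9 and 2.02 in Tumor-899, where the deep value rests on 4 UMIs. The zones did not overlap, and the fitted difference was 18.7-fold (log2 -4.22 ± 0.24; adjusted p = 5.2e-06). MT1B of the same gene cluster (chr16:56651886-56653204), at a mean level just under the naming rule's minimum, was at 34.0 near and 2.19 deep in Tumor-897, and at 38.1 and 3.03 in Tumor-899 (log2 -3.79 ± 0.29). Near the border, 58.6% of spots in Tumor-897 and 36.4% in Tumor-899 held an MT1M UMI, against 6.64% and 1.56% of the shallower deep spots.

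The abundant members of the cluster did not pass. MT2A was at 5224 CPM near and 5113 deep in Tumor-897, and at 5217 and 4028 in Tumor-899 (log2 -0.20, adjusted p = 0.51). MT1E was at 1397 near and 1267 deep in Tumor-897, and at 1194 and 996 in Tumor-899 (log2 -0.20, adjusted p = 0.46). Of the other oxidative stress genes in the same list of 15, none was called. Since metallothioneins are close in sequence, reads split between them are uncertain. Metallothionein genes are switched on through metal response elements, short sites bound by the zinc-sensing factor MTF1. The 250 bases before the start of a gene that fell and of one that did not are shown, from RefSeq on GRCh38.p14, plus strand, 5′ to 3′, to set the site content of MT1B (chr16:56651636-56651885) beside that of MT2A (chr16:56608334-56608583). Capitals mark TGCACNC or TGCGCNC on either strand, the core of the metal response element:
MT1B: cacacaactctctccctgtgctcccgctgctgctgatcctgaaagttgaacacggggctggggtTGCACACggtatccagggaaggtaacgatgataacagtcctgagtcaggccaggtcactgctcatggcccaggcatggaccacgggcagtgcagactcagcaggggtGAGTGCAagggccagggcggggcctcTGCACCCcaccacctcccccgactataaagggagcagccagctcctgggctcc
MT2A: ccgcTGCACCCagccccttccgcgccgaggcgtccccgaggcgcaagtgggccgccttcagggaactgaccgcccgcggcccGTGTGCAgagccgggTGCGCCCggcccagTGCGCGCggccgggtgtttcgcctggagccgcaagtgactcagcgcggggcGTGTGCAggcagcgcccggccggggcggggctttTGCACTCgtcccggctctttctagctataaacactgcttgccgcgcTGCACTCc
MT1B held 3 matches and MT2A 7. MT1X, which was not called either, held 4, with 1181 CPM near and 1474 deep in Tumor-897 and 808 and 639 in Tumor-899. MT1M and MT1E were not matched in the promoter table. Of 27305 promoters in the table, 24.7% held at least 1 match and 0.366% at least 4. A match is a description of the letters and not a measured site.

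SAA1, HPR and SERPING1 were also lower deep than near. SAA1, serum amyloid A, an acute-phase protein (chr11:18266264-18269967, GRCh38.p14), was at 50.2 CPM near and 5.84 deep in Tumor-897, and at 162 and 4.03 in Tumor-899, where the deep value rests on 8 UMIs. The fitted difference was 18.4-fold (log2 -4.20 ± 0.31; adjusted p = 4.6e-05), and the 4 values did not overlap between zones. It was highest at the very rim: at 1 to 2 steps SAA1 stood at 73.9 UPM in Tumor-897 and 394 in Tumor-899, and at 3 to 5 steps at 18.6 and 79.5. HPR, haptoglobin-related protein, which binds hemoglobin and has a close paralog, was at 46.4 near and 5.47 deep in Tumor-897, and at 19.3 and 3.53 in Tumor-899 (log2 -2.89 ± 0.27). SERPING1, the C1 inhibitor that restrains complement, fell too (log2 -2.07 ± 0.17).

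Among macrophage and granulocyte markers 4 of 15 passed the filter on low counts, and 2 of these fell, beside 0.591% of all tested genes. CD68 did not follow them. It was at 241 CPM near and 221 deep in Tumor-897, and at 194 and 202 in Tumor-899 (log2 -0.04, adjusted p = 0.93). APOE, the lipoprotein of lipid-handling macrophages, was at 67.0 near and 18.6 deep in Tumor-897, and at 37.0 and 17.1 in Tumor-899 (log2 -1.57 ± 0.19). C1QB, a complement chain made by macrophages, had 67 UMIs near and 6 deep in Tumor-897, and 13 and 1 in Tumor-899; the ratio in Tumor-899 was 9.53 with a counting interval from 1.43 to 405, and the call was lost with DESeq2 (adjusted p = 0.98) with matched UMIs (adjusted p = 0.058) and without the tumor block (adjusted p = 0.083). The sum of the 15 markers differed less, with 345 UPM near and 243 deep in Tumor-897, and 253 and 236 in Tumor-899. Most of that sum was CD68, so it says little of the other markers. CD68 held 1249 of 1821 UMIs near and 606 of 688 deep in Tumor-897. In Tumor-899 it held 513 of 668 near and 401 of 456 deep. CD163 was at 0 in both zones of both tumors. The part of these cells in the result was not tested.

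Globin transcripts were the largest rise. HBB, the beta chain of adult hemoglobin (chr11:5225464-5227071, GRCh38.p14), was at 11.2 CPM near and 185 deep in Tumor-897, and at 5.29 and 49.9 in Tumor-899. Both deep values were above both near values, a 14.6-fold difference (log2 3.86 ± 0.19; adjusted p = 1.6e-06). HBD, the delta chain (chosen after its values were seen), was at 3.09 near and 25.5 deep in Tumor-897, and at 1.13, from 3 UMIs, and 16.6 in Tumor-899 (log2 3.21 ± 0.31). The plain ratio for HBD in Tumor-899 was 15.01, with a counting interval from 4.71 to 76.5. HBB and HBD are near copies, so reads may be shared between them. HBA1, an alpha chain under the filter on low counts, was at 0.801 CPM near and 4.95 deep in Tumor-897, and at 0 and 1.57 in Tumor-899. Of the 5 red blood cell markers, which summed to 12.1 UPM near and 186 deep in Tumor-897 and to 5.31 and 52.8 in Tumor-899, SLC4A1, the anion exchanger of red cells, was at 0 in both zones of both tumors.

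The HBB signal sat in few spots. In Tumor-897, 59 of 226 deep spots held an HBB UMI, and 10 spots that form 1 patch at 18 to 20 steps held 82.8% of the 506 UMIs. In Tumor-899, 21 of 257 deep spots held one, and 10 spots in 6 patches at 14 to 21 steps held 88.9% of the 99 UMIs. Without the 10 spots with most HBB in each zone, an alternative chosen after seeing the data, HBB was at 32.9 UPM deep and 5.01 near in Tumor-897. In Tumor-899 it was then at 6.51 deep and 0.399 near, and the near value rests on 1 UMI, since 11 near spots in all held any. Set against the whole near zone, these deep values of 32.9 and 6.51 stood beside 10.98 UPM in Tumor-897 and 5.31 in Tumor-899. The low-UMI area held 6.52% of the deep HBB UMIs in Tumor-897 and 3.03% in Tumor-899.

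Lipid storage genes split. PLIN2, which coats lipid droplets (chr9:19108388-19127492, GRCh38.p14), was at 145 CPM near and 355 deep in Tumor-897, and at 180 and 279 in Tumor-899. It rose 1.97-fold (log2 0.98 ± 0.14; adjusted p = 0.0092) and the zones did not overlap. By step, PLIN2 was at 103 UPM in the outermost class and 401 in the innermost in Tumor-897, and at 108 and 309 in Tumor-899. HILPDA, a hypoxia-induced inhibitor of lipid droplet breakdown, was at 36.1 near and 81.0 deep in Tumor-897, and at 33.6 and 42.3 in Tumor-899 (log2 0.86, adjusted p = 0.069), and was not called. PLIN2 was the only called gene of the 11 lipid storage genes that passed the filter, whose median was 0.01.

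Heat shock genes shifted upward as a list, but 1 of 12 was called, beside 0.159% of all tested genes called higher. All 12 were above 0 in both tumors, beside 28.7% of the genes tested, with a median of 0.70; 11 of the 12 had an unadjusted p under 0.05. HSPA1B, an inducible HSP70 chaperone, was at 217 CPM near and 295 deep in Tumor-897, and at 248 and 708 in Tumor-899 (log2 0.98 ± 0.19; adjusted p = 0.047). Its call was lost with DESeq2 (adjusted p = 1.0), with matched UMIs (adjusted p = 0.47) and without the tumor block (adjusted p = 0.10), and HSPA1A and HSPA1B are near-identical copies whose reads can be split. HSPA1A was at 98.9 near and 124 deep in Tumor-897, and at 111 and 377 in Tumor-899 (adjusted p = 0.097). HSPA6, which is silent in unstressed cells, was at 44.0 near and 50.003 deep in Tumor-897, and at 53.6 and 210 in Tumor-899 (adjusted p = 0.15). DNAJB1, an HSP40 co-chaperone, was at 286 and 317 in Tumor-897, and at 284 and 742 in Tumor-899 (adjusted p = 0.19). The difference in these 4 genes was several times larger in Tumor-899 than in Tumor-897 on the log2 scale.

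**Figure D4:**
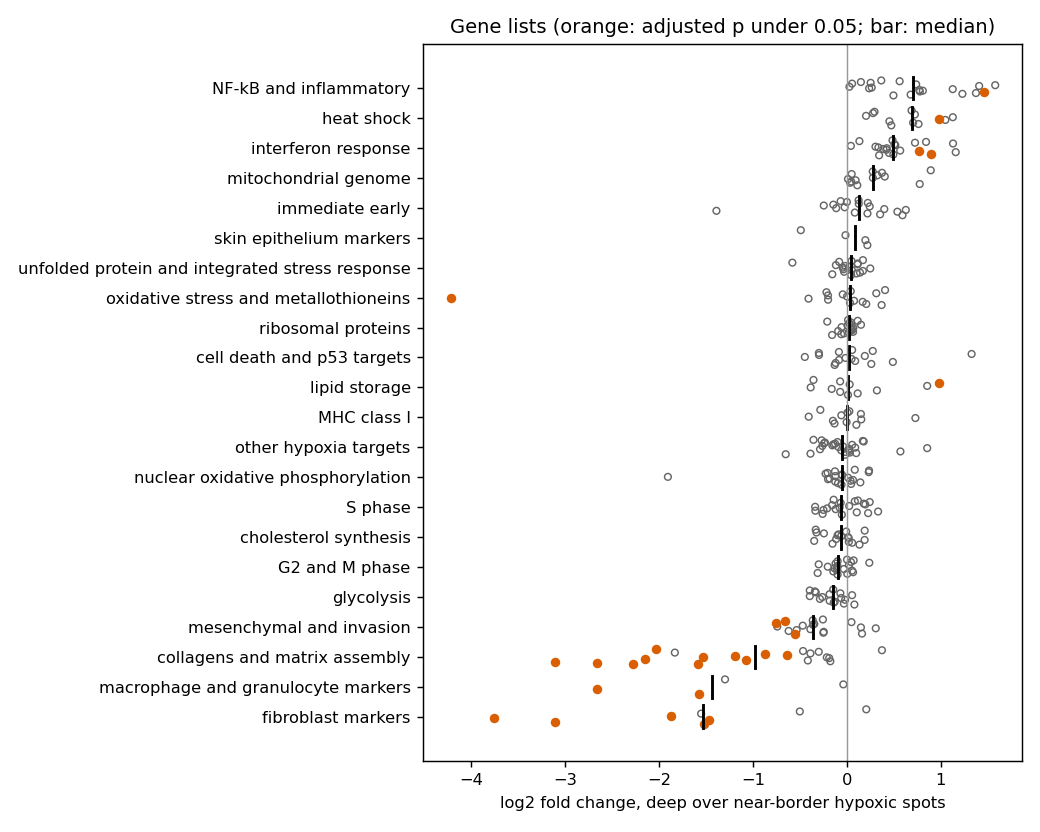
Log2 fold change, deep over near-border hypoxic spots, of every member that passed the filter on low counts in each list with at least 4 such members; orange points have an adjusted p under 0.05 over all genes, open grey points do not, and the black bar is the median. The medians of the collagen and fibroblast lists lie left of 0, with members up to 0.37 and 0.21, and all members of the macrophage list lie left of 0. All members of the inflammatory, heat shock and interferon lists lie right of 0, with 1, 1 and 2 called genes.

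Inflammatory genes of the NF-kB pathway also shifted upward as a list, but mainly in Tumor-897. Their median log2 fold change was 0.73 in Tumor-897 and 0.13 in Tumor-899. For the heat shock list these medians were 0.21 and 1.05. Of 20 that passed the filter, 1 rose and none fell, beside 0.159% of all tested genes called higher. The median was 0.71, 14 were above 0 in both tumors, beside 28.7% of the genes tested, and 11 had an unadjusted p under 0.05. CSF2, the cytokine GM-CSF, was at 9.08 CPM near and 36.5 deep in Tumor-897, and at 17.4 and 30.2 in Tumor-899 (log2 1.46 ± 0.27; adjusted p = 0.030). The call was lost with DESeq2 (adjusted p = 0.47), matched UMIs (adjusted p = 0.14) and a minimum of 2000 UMIs per spot (adjusted p = 0.080). CXCL8, the neutrophil attractant interleukin-8, was at 23.6 near and 78.8 deep in Tumor-897, and at 47.6 and 63.5 in Tumor-899 (adjusted p = 0.069). IL6 was at 3.86 and 18.2 in Tumor-897, and at 7.17 and 11.1 in Tumor-899 (adjusted p = 0.094). CCL26, an eosinophil attractant, leaned on the other tumor, with 31.7 near and 37.6 deep in Tumor-897 and 21.9 and 135 in Tumor-899 (adjusted p = 0.17).

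Among 20 interferon response genes, IFI27 and IFI6 rose and none fell, beside 0.159% of all tested genes called higher. The median was 0.49, 17 were above 0 in both tumors, beside 28.7% of the genes tested, and 14 had an unadjusted p under 0.05. IFI27 was at 164 CPM near and 254 deep in Tumor-897, and at 82.7 and 195 in Tumor-899 (log2 0.89 ± 0.14). IFI6, a survival factor induced by type I interferon, was at 51.8 near and 77.4 deep in Tumor-897, and at 52.9 and 106 in Tumor-899 (log2 0.77 ± 0.14). The antiviral GTPase gene MX1 was at 11.6 and 24.1 in Tumor-897, and at 7.17 and 17.6 in Tumor-899, and missed the threshold at an adjusted p of 0.055. IFI27 was lost without the tumor block (adjusted p = 0.16), and IFI6 with DESeq2 (adjusted p = 0.76), with matched UMIs (adjusted p = 0.092) and in spots thinned to 2000 UMIs (adjusted p = 0.080). Of 12 genes of MHC class I antigen presentation, none was called by edgeR or DESeq2, and 1 had an unadjusted p under 0.05.

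The remaining called genes that the naming rule gave were all under 2-fold. AGR2, a disulfide isomerase of secretory cells, was at 69.2 CPM near and 100.005 deep in Tumor-897, and at 68.7 and 133 in Tumor-899 (log2 0.72 ± 0.13). DHRS2, a short-chain dehydrogenase, was at 26.7 and 49.3 in Tumor-897, and at 37.4 and 63.0 in Tumor-899 (log2 0.82 ± 0.14). NEAT1, the long noncoding RNA that builds nuclear paraspeckles, was at 165 near and 231 deep in Tumor-897, and at 138 and 237 in Tumor-899 (log2 0.62 ± 0.11). AGR2, DHRS2 and NEAT1 were all lost with DESeq2, with matched UMIs and in thinned spots, at adjusted p between 0.065 and 1.0. With a minimum of 2000 UMIs AGR2 and DHRS2 missed the threshold at 0.053, without the tumor block DHRS2 at 0.076, and in the top 10% of H NEAT1 at 0.18.

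MTRNR2L12, a nuclear copy of mitochondrial ribosomal RNA whose reads can come from either genome, was at 229 CPM near and 395 deep in Tumor-897, and at 226 and 327 in Tumor-899 (log2 0.67 ± 0.10). Without the low-UMI area its difference was 0.21 (adjusted p = 0.52), and with matched UMIs 0.16 (adjusted p = 0.68). It also missed the threshold with DESeq2, at 0.097, and with a minimum of 2000 UMIs, at 0.055. The 13 protein genes of the mitochondrial genome had a median of 0.28 and 12 were above 0 in both tumors, beside 28.7% of the genes tested. Neither edgeR nor DESeq2 called any of them, and 7 had an unadjusted p under 0.05. Mitochondrial transcripts made up 2.08% of UMIs near and 2.23% deep in Tumor-897, and 1.51% and 1.69% in Tumor-899. Their part in the rise of MTRNR2L12 was not tested.

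Among called genes under the naming rule's minimum of 20 CPM, chosen after their values were seen, were NR4A1, PDK4 and S100P. PDK4, a kinase that blocks pyruvate entry into mitochondria, had 5 UMIs near and 16 deep in Tumor-897, and 3 and 18 in Tumor-899, a ratio of 8.19 in the second with a counting interval from 2.39 to 43.4. S100P, a calcium-binding protein, was at 1.93 CPM near and 8.76 deep in Tumor-897, and at 1.89 and 16.6 in Tumor-899. NR4A1, an immediate-early nuclear receptor, was at 5.02 and 11.7 in Tumor-897, and at 6.04 and 25.7 in Tumor-899. With DESeq2 and with matched UMIs none of these 3 was called, at adjusted p between 0.12 and 0.98. PDK4 was also lost with the frame edge as border, and NR4A1 with no tumor block, with a minimum of 2000 UMIs and with H of the single spot, at adjusted p between 0.053 and 0.13. By edgeR and DESeq2, 0 of 18 immediate early genes on the fixed list were called, and 3 had an unadjusted p under 0.05.

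Hypoxia targets that the rule did not use showed no called difference. Of 30, 28 passed the filter. Neither edgeR nor DESeq2 called any, 6 had an unadjusted p under 0.05, and the median was -0.05. By tumor the medians parted, at 0.13 in Tumor-897 and -0.30 in Tumor-899. Above 0 in both tumors were 2 genes, and below 0 in both 10, beside 28.7% and 28.8% of the genes tested. ANGPTL4, a secreted inhibitor of lipoprotein lipase, was at 265 CPM near and 204 deep in Tumor-897, and at 221 and 111 in Tumor-899 (log2 -0.65, adjusted p = 0.069). VEGFA, the growth factor for vessels, was at 163 and 169 in Tumor-897, and at 183 and 116 in Tumor-899 (adjusted p = 0.54). CITED2, which competes with HIF for its coactivator, came nearest the threshold in the other direction, with 122 near and 201 deep in Tumor-897 and 168 and 223 in Tumor-899 (adjusted p = 0.050, just above 0.05).

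Glycolysis genes had a median of -0.15, and 11 of 17 were below 0 in both tumors, beside 28.8% of the genes tested. No glycolysis gene was called by edgeR or DESeq2, and 6 had an unadjusted p under 0.05. SLC16A3, the lactate exporter MCT4, was at 186 near and 142 deep in Tumor-897, and at 222 and 167 in Tumor-899 (log2 -0.40, adjusted p = 0.15). LDHA, which turns pyruvate into lactate, was at 2219 and 2136 in Tumor-897, and at 2500 and 1804 in Tumor-899 (adjusted p = 0.41). A p that misses the threshold in 2 sections does not show that these genes were alike in both zones.

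Proliferation genes gave no called difference either. By edgeR and DESeq2 none of 20 S phase and none of 20 G2 and M phase genes was called; 2 and 1 had an unadjusted p under 0.05, and the medians were -0.06 and -0.10. Of 16 cell death and p53 target genes none was called by edgeR or DESeq2 and 4 had an unadjusted p under 0.05; CDKN1A, the cell cycle inhibitor p21, was at 92.5 near and 70.4 deep in Tumor-897, and at 106 and 74.1 in Tumor-899 (adjusted p = 0.15). Lists of the unfolded protein and integrated stress response, ribosomal proteins, nuclear oxidative phosphorylation and cholesterol synthesis had no gene called by edgeR or DESeq2, 1, 1, 2 and 2 genes at an unadjusted p under 0.05, and medians of 0.05, 0.03, -0.06 and -0.06.

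To set the deep against near difference of hypoxic spots beside that elsewhere, the same step limits were applied to all other kept spots. These gave 1556 near and 1456 deep spots, and the difference of the 2 log2 fold changes was tested over 8 sums and 13722 genes. In the other spots H rose with depth, from a median of 12.6 near to 17.5 deep in Tumor-897 and from 6.65 to 18.5 in Tumor-899. In hypoxic spots it went from 35.7 to 31.0 and from 37.5 to 27.1. Position and H thus changed together in the other spots, and the part of H was not tested. Of these, 7 genes were called (0.0510%), and 715 had an unadjusted p under 0.05. HBB was at 11.6 CPM near and 193 deep in hypoxic spots of Tumor-897, and at 64.1 and 78.9 in its other spots. In Tumor-899 it was at 5.52 and 51.7 in hypoxic spots, and at 40.3 and 43.1 in other spots. Thus HBB stood below the other spots near the border and, in Tumor-897 by more than in Tumor-899, above them deep inside. The deep part rests on few spots. Without the 10 deep hypoxic spots with most HBB, the rest held 32.9 UPM in Tumor-897 and 6.51 in Tumor-899. These levels lay below those of the other deep spots, from which no spots were removed. The log2 fold changes differed by 3.68 ± 0.19 (adjusted p = 2.3e-07). Without spots rich in markers of other cells, among which HBB itself is counted, the difference was 1.96 and was not called (adjusted p = 0.30), and with no tumor block it was 3.51 (adjusted p = 1.0).

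SAA1 was at 52.1 CPM near and 6.10 deep in hypoxic spots of Tumor-897, and at 14.2 and 8.62 in its other spots. In Tumor-899 it was at 169 and 4.18 in hypoxic spots, and at 34.6 and 12.3 in other spots. The log2 fold change in hypoxic spots minus that in other spots was -3.08 ± 0.43 (adjusted p = 0.018). HPR had log2 fold changes of -2.89 in hypoxic and -0.56 in other spots, and COL5A2 of -2.15 and -1.02, with adjusted p of 0.042 and 0.023 for the difference. HBD, INHBA and the long noncoding RNA UCA1, chosen after their values were seen, were the other called genes. Each of the 7 calls was lost under some of 16 alternatives: HBB under 2, SAA1 under 3, HBD under 4, COL5A2 and UCA1 under 6 each, HPR under 7 and INHBA under 8. SAA1 was lost with DESeq2 (adjusted p = 1.0), with H of the single spot (adjusted p = 0.17) and with no tumor block (adjusted p = 1.0). UCA1 differed from the rest: its log2 fold change was -0.10 in hypoxic spots and 0.83 in the others.

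**Figure D5:**
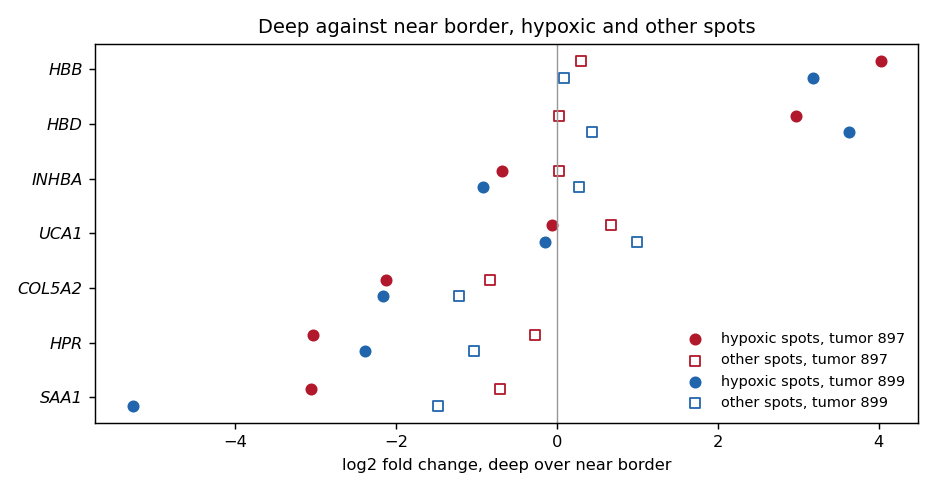
Log2 fold change, deep over near border, of the 7 genes called in the test of hypoxic against other spots; filled circles are hypoxic and open squares other spots, red is Tumor-897 and blue Tumor-899. For HBB and HBD the hypoxic points lie between 2.97 and 4.03 and the other points between 0.03 and 0.43.

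For the other named genes that were tested, no difference between the classes of spots was called. COL3A1 had a log2 fold change of -3.09 in hypoxic and -2.51 in other spots (adjusted p = 0.92 for the difference), and PLIN2 of 0.99 and 0.91 (adjusted p = 0.98). HSPA1B had 0.98 and 1.13 (adjusted p = 0.97), and NEAT1 0.62 and 0.61 (adjusted p = 1.0). IFI27 had 0.88 in hypoxic and 0.01 in other spots, and MT1M -4.23 and -1.94, and both missed the threshold, at adjusted p of 0.068 and 0.067. CSF2 had 1.48 and 0.26 (adjusted p = 0.53).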

How the data were processed

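The authors deposited UMI counts per gene and spot. The file headers name Space Ranger 1.3.0 as their source, and the submitters' processing notes name hg38. Images were not used. Zones, lists and members were chosen with earlier results of these data known. UMI counts were summed per tumor and zone, since spots are not replicates. The 4 sums, or 8 for hypoxic against other spots, were fitted in edgeR 4.0.16 (glmQLFit, glmQLFTest, TMM, filterByExpr) and a tumor block, at 1 and 2 residual degrees of freedom with prior degrees of freedom of 9.84 and 12.2. P-values were Benjamini-Hochberg adjusted over all genes, at 0.05. The 8 genes of H were not tested. A prior count of 2 entered log2 values per tumor. SE is the log2 fold change over the root of F. The code was tested on simulated data. Counting intervals cover counting error only.

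Named genes were, among called genes of the same sign in both tumors with a mean of at least 20 CPM and without genes named by a clone or locus, the 12 highest and 12 lowest log2 fold changes (10 were called higher). Added were the 2 members of each of 29 lists with the largest absolute change, mostly not printed, and up to 3 genes on each side of the test against other spots. Other genes named were picked with their values known. Some called genes are not reported here. Positions and promoters came from RefSeq on GRCh38.p14, which matched 96 of 99 genes by symbol. The tumors share 1627 of their barcodes, which are array positions. Alternatives were other scaling, DESeq2 1.42.0, no filter, no block, other depth, H, border and zone rules, and each tumor left out. Software was matplotlib 3.10.9, pandas 2.3.3, scipy 1.17.1 and numpy 2.4.6 on Python 3.11.15, and R 4.3.3.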

Additional observations from a re-analysis of the deposited data

Results flagged for a closer look

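In 7 genes the deep against near log2 fold change in hypoxic spots differed from that in the other spots at the same steps. The call was by edgeR's test of the difference at an adjusted p under 0.05. H itself rose from near to deep in the other spots, and its part was not tested. For HBB, 10 spots held 82.8% of the UMIs in deep hypoxic spots of Tumor-897, and 10 held 88.9% in Tumor-899. The log2 fold change was higher in hypoxic spots by 3.68 for HBB and by 3.0 for HBD. Without spots rich in markers of other cells these were 1.96 and 1.19, neither called (adjusted p = 0.30 and adjusted p = 0.81), and with no tumor block none of the 7 genes was called. For SAA1 the difference was -3.08, for HPR -2.33, for COL5A2 -1.12, for UCA1 -0.93 and for INHBA -0.92. In both tumors the difference had the sign given for each of the 7 genes. SAA1, HPR and COL5A2 were lower deep than near in both classes of spots in both tumors, more so in the hypoxic ones. INHBA had log2 fold changes of -0.68 and -0.91 in hypoxic spots of Tumor-897 and Tumor-899, and of 0.03 and 0.27 in the others. UCA1 had -0.06 and -0.14 in hypoxic spots and 0.67 and 0.99 in the others. HBD, UCA1 and INHBA were chosen after their values were seen.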

How the results depend on the processing

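Of 39 called genes followed through the alternatives, none reversed under any alternative that gave a value for it. Each kept its sign in each tumor taken alone, where no test is possible, but the calling itself favours such agreement. DESeq2 and matching zones on UMIs kept the calls of 23 of the 39 each, no replicate block of 30, and a minimum of 2000 UMIs per spot of 33. VEGFA, which was not called, turned to 0.29 with zones matched on H. Genes called higher and lower deep, 18 and 67, became 110 and 217 with library size alone, 83 and 218 with no filterByExpr, 91 and 171 with H of the single spot, and 132 and 185 with zones matched on H. They became 43 and 119 with the frame edge as border, 50 and 137 with hypoxic spots split at the median step, 105 and 222 with the top 33.3% of H, and 127 and 157 with the top 10%. Without spots 1 step from the border they were 82 and 143, without spots rich in other-cell markers 77 and 129, without the low-UMI area 48 and 134, and without spots at the limit steps 126 and 240. DESeq2 gave 4 and 26, and matching on UMIs 4 and 41. A minimum of 2000 UMIs gave 9 higher and thinned spots 31. Prior degrees of freedom were unbounded under 10 alternatives, which called 104 to 366 genes, and 7.38 to 44.1 under 8 others, which called 45 to 187. Of the 85 genes, DESeq2 called 30, matching on UMIs 43 and thinned spots 49.

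Genes whose difference differed between hypoxic and other spots, 7, became 4 with DESeq2 size factors or with DESeq2, 16 with library size alone, 59 with no filterByExpr, 11 with a minimum of 2000 UMIs and 17 in thinned spots. They were 21 with the frame edge as border, 41 with the top 10% of H, 3 without spots 1 step from the border, 3 without spots rich in other-cell markers and 13 without the low-UMI area. The labels give no replicate numbers: the block is the tumor, and both zones come from each. With no replicate block edgeR called 12 higher and 53 lower genes and, between hypoxic and other spots, 0, with 487 at an unadjusted p under 0.05. Causes were not tested. Counting error is widest for genes with few deep UMIs in Tumor-899, such as MT1M with 4, SAA1 with 8 and MFAP5 with 3.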
